A study of Mus musculus with 6 samples.

Results

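RCOR2 is one of the CoREST proteins that the repressor REST uses as cofactors, yet most of the RCOR2 peaks in these data lay away from REST. The RCOR2 sites described here are the peaks of the deposited RCOR2 list whose midpoint had no REST midpoint less than 400 bp away on the same chromosome. They were thus chosen by the deposited positions of RCOR2 and REST peaks, and the counts that follow from that choice only describe it. Of the 459 RCOR2 peaks, 373 met this rule, 64 had a REST peak within that distance, and 22 were left out because they lay between positions 165300000 and 165400000 of chromosome X, where peaks of all 6 lists crowd together. Of those 22, 7 had no REST peak that close. The 373 sites were then split by an RCOR3 midpoint within the same distance, which gave 190 sites with RCOR3 and 183 without. The 6 lists held 14023 peaks in all.

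The lists come from ChIP-seq, in which DNA bound by a protein is precipitated with an antibody and sequenced. The cells were E14, an embryonic stem cell line from mouse, between passages 15 and 18, and each protein had 1 library. RCOR1, RCOR2 and RCOR3 were recovered with a V5 antibody from stable E14 lines that express a V5-tagged copy of the protein at a low level, so the RCOR2 and RCOR3 lists each come from a line carrying its own transgene. SIN3B was recovered with the same antibody, although the label of its transgene gives the tag as VG. REST and SIN3A were recovered with antibodies against the proteins themselves in E14 cells for which no transgene is listed. Whether a line is 1 clone is not given in the sources used here.

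REST is a zinc-finger protein that binds a long DNA element near neuronal genes and keeps them silent outside neurons. CoREST proteins are scaffolds with an ELM2 domain and SANT domains that hold histone deacetylases and the histone demethylase LSD1 together. They do not belong to REST alone, since other DNA-binding proteins also recruit LSD1 and CoREST. RCOR2 is the family member known for its high level in embryonic stem cells, and RCOR3 is a paralogue of it. SIN3A and SIN3B are scaffold proteins of a separate histone deacetylase complex, which REST contacts through its other end.

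Each peak carries a start, an end and a score of the authors' own, whose meaning is not stated. It is used here only to rank peaks within a list, where rank 1 is the highest score and a percentile of 100 is the top. With 1 library per protein there is no replicate error and no test between proteins or classes of site. The 95% intervals given with shares are exact Clopper-Pearson intervals, those given with medians are binomial intervals of the order statistics, and both cover counting error only. A protein missing from a list at a site had no peak past the authors' threshold there, which does not show that it was absent. Positions are on build mm8 as deposited, and since no reference of that build was at hand, no sequence or gene is given for a site.

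The exact distance limit decided no site's class by REST or RCOR3. The RCOR2 peak counted as at REST that lay farthest from it was 210 bp away (chr11:80705731-80705791), and the next were at 130 bp (chr2:157604691-157604991 and chr4:3011971-3012011). The nearest site counted as away lay at 910 bp (chr7:27363551-27363691), followed by 2130 bp (chr11:104012011-104012071) and 2530 bp (chr4:82726331-82726371). The split by RCOR3 was as clear, with the largest shared distance at 180 bp and the smallest unshared one at 880 bp. Between these values no RCOR2 peak outside the stretch on chromosome X changed class.

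RCOR2 scores at the 373 sites were heavily tied. They lay between 7.04 and 24.12, and the median was 11.31, the same as that of the whole RCOR2 list, which reached 52.01. The 373 sites took only 28 different scores. At or above 10.55, which held 348 sites, the scores stood on 18 levels with a median step of 0.75. The level 10.55 alone held 111 sites. The highest-scoring site away from REST had rank 9 of 459, and all higher ranks belonged to peaks at REST or to the stretch on chromosome X. The 64 RCOR2 peaks at REST had a median score of 12.81 (11.31 to 13.57).

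RCOR3 was found at 190 of the 373 sites, or 50.9% (45.7 to 56.1%). Over all 437 RCOR2 peaks outside the stretch on chromosome X the share was 57%, and among the 64 peaks at REST it was 92.2% (59 of 64, 82.7 to 97.4%). Sites with RCOR3 had a median RCOR2 score of 12.06 (12.06 to 12.81) and a median percentile of 56.3. Sites without RCOR3 had a median RCOR2 score of 10.55 (10.55 to 11.31) and a median percentile of 20.9. The medians of the 2 classes were thus 2 levels of the score apart. Their intervals did not overlap, but they count sites of the same libraries and are no test between the classes. Because of the ties, the percentile of sites without RCOR3 moved to 31.6 without chromosome 8 or with midpoints up to 1000 bp apart counted as shared, and to 42.3 with intervals as deposited or with the stretch on chromosome X kept. It stayed below the 56.3 of sites with RCOR3 in each of these. The classes themselves overlapped widely, with scores from 8.29 to 24.12 for sites with RCOR3 and from 7.04 to 18.09 for sites without.

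The share of sites with RCOR3 was higher at higher RCOR2 scores. Below a score of 10.55 it was 28% (7 of 25, 12.1 to 49.4%), and at 10.55 it was 33.3% (37 of 111, 24.7 to 42.9%). Through the middle levels, from 11.31 to 14.32, it lay between 51.6% and 60%, with no order among them beyond their intervals. From 15.08 to 16.58 it was 81.5% (22 of 27, 61.9 to 93.7%), and from 17.34 upward it was 88% (22 of 25, 68.8 to 97.5%). All 13 sites scoring 18.85 or more had RCOR3. Low score and missing RCOR3 therefore went together, and how far the threshold of either list sets this share was not tested. At the level 10.55, where the RCOR2 score was equal, 9 of 12 peaks at REST had RCOR3 (75%, 42.8 to 94.5%) against 37 of the 111 sites away from REST. Those intervals overlapped by a narrow margin. The share at REST was also the higher one at every other level, each with at most 11 peaks at REST. It was 6 of 7 against 7 of 25 below 10.55 and 8 of 8 against 32 of 62 at 11.31. From 15.08 to 16.58 it was 7 of 8 against 22 of 27. The intervals overlapped at each of these levels as well.

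**Figure D1:**
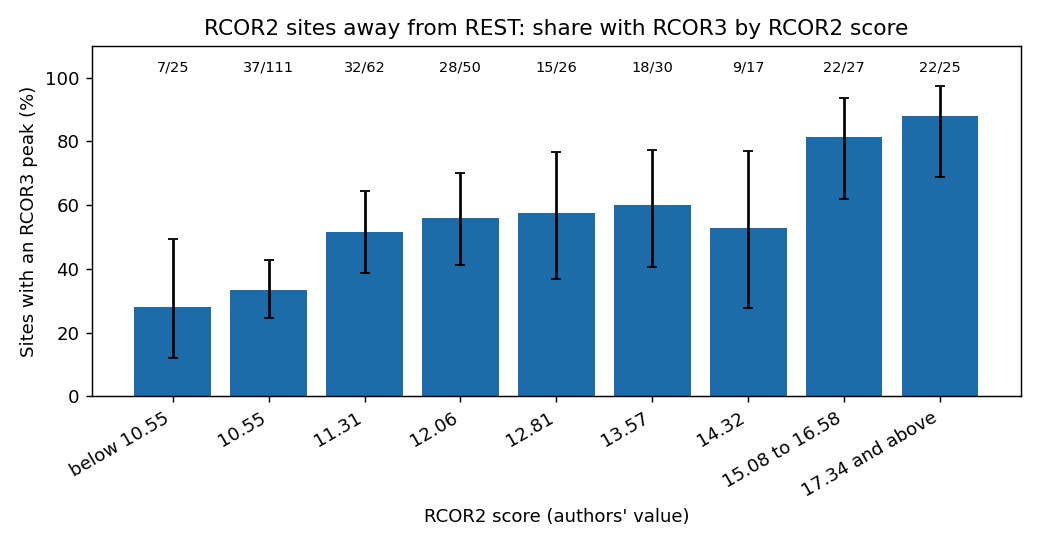
Share of RCOR2 sites away from REST that had an RCOR3 peak less than 400 bp away (vertical axis, percent) for each level of the RCOR2 score (horizontal axis). Bars are shares, lines are exact 95% intervals and the fractions give sites with RCOR3 over all sites at that level, from 7 of 25 at the lowest scores to 22 of 25 at the highest.

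The RCOR3 peaks at these sites stood high in their own list. Their RCOR3 scores lay between 9.2 and 78.62, and the median was 16.73 (15.89 to 18.4), a median percentile of 78.9 (75.7 to 83.6). The 2581 RCOR3 peaks away from REST that had no RCOR2 peak had a median RCOR3 score of 11.71 and a median percentile of 35.3. The 59 RCOR3 peaks that met RCOR2 at REST were higher still, with a median RCOR3 score of 52.69 (40.98 to 63.56). Of the 190 sites, 55 (28.9%) had an RCOR3 peak at or above percentile 90 of its list.

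Read from the side of RCOR3, an RCOR2 peak was present at 191 of 2772 RCOR3 peaks away from REST, or 6.89% (5.98 to 7.90%), against 6.73% over all RCOR3 peaks outside the stretch on chromosome X. The count is 1 above the number of sites because a second RCOR3 peak (chr3:96169811-96169931) lay 340 bp from an RCOR2 site that already had a nearer one. The share differed along the RCOR3 score, though not steadily. In the small lowest group, with RCOR3 scores from 9.2 to 10.59, it was 8.77% (5 of 57, 2.91 to 19.3%). It was 2.70% (22 of 816, 1.70 to 4.05%) at 10.87, 1.68% (9 of 537, 0.769 to 3.16%) at 11.71 and 8.81% (31 of 352, 6.06 to 12.3%) from 15.05 to 17.56. From 18.4 upward it reached 32.5% (86 of 265, 26.9 to 38.5%). Of the 20 highest-scoring RCOR3 peaks away from REST, 14 had RCOR2 (70%, 45.7 to 88.1%). Among those scoring 23.42 or more it was 55 of 108 (50.9%, 41.1 to 60.7%). Only the very highest-scoring RCOR3 peaks outside REST were thus mostly shared with RCOR2. Few of the many peaks at 10.87 and 11.71 were in the much shorter RCOR2 list.

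At the shared sites the scores of the paralogues rose together only loosely. Across the 190 sites, which come from the same pair of libraries and are not replicates, Spearman's rho between the RCOR2 and RCOR3 scores was 0.40. It was 0.49 across the 59 shared sites at REST. Sites with an RCOR2 score of 11.31 or less had a median RCOR3 score of 14.6 (13.4 to 16.7, n = 76). Sites above 13.57 had a median of 25.9 (19.2 to 28.4, n = 53), and 58.5% of these stood at or above percentile 90 of the RCOR3 list.

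**Figure D2:**
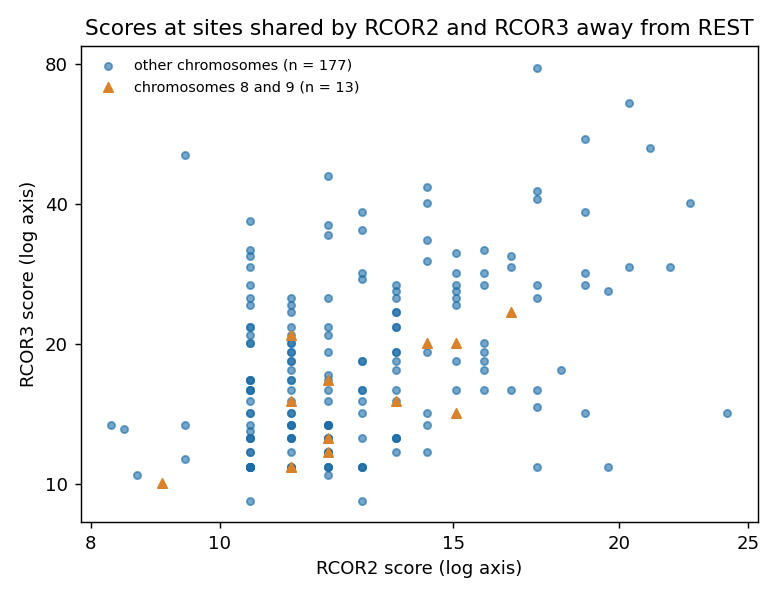
RCOR2 score (horizontal log axis) against RCOR3 score (vertical log axis), both the authors' values, at the 190 sites shared away from REST. Each point is a site, and triangles mark the 13 sites on chromosomes 8 and 9. The columns of points are the tied RCOR2 scores, and the point at the top is the site on chromosome 11 with an RCOR3 score of 78.62.

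Single sites show how the ranks of the pair can part. The highest-scoring RCOR2 site away from REST lay at chr2:152107771-152107811, with an RCOR2 score of 24.12 (rank 9) but an RCOR3 score of only 14.22 (rank 1170 of 3744). The second, at chr14:44354011-44354051, had 22.61 for RCOR2 (rank 13) and 40.14 for RCOR3 (rank 69), with equal midpoints. It lay 1909750 bp from the nearest REST peak, farther than any other site scoring 17.34 or more. The third, at chr10:8579891-8580091, had 21.86 for RCOR2 and 29.27 for RCOR3, and a site on chromosome 18 followed with 21.11 and 52.69.

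Below these stood 2 sites with an RCOR2 score of 20.35 (rank 20). At chr12:4576011-4576051 the RCOR3 score was 29.27, and at chr7:48996071-48996111 it was 66.07 (rank 25). Another 2 sites had an RCOR2 score of 19.6 (rank 22). The RCOR3 score was 25.93 at chr2:31607311-31607351 but 10.87 (rank 2743) at chr6:37760611-37760651. None of these 8 sites had a SIN3A, SIN3B or RCOR1 peak. Their RCOR2 and RCOR3 midpoints lay 0 to 20 bp apart.

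The strongest RCOR3 score at an RCOR2 site away from REST was 78.62 (rank 18), at chr11:117719771-117720011, where the RCOR2 score was 17.34. Next came the site on chromosome 7 already named and chr2:119238451-119238591, with 55.2 for RCOR3 (rank 41) and 18.85 for RCOR2. The site on chromosome 18 followed. The fifth by RCOR3 score, chr16:4475951-4476071, had 51.02 for RCOR3 (rank 45) but stood at rank 427 of 459 for RCOR2, with a score of 9.42. A high RCOR3 score did not always come with a high RCOR2 score.

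Among the sites without RCOR3, the 3 highest RCOR2 scores all lay on chromosomes 8 and 9. They were 18.09 at chr8:24368731-24368771 (rank 32), 17.34 at chr9:4260971-4261011 and 17.34 at chr9:46671251-46671311 (both rank 35). The nearest RCOR3 peaks were 182840, 3624140 and 277380 bp away. After them came 16.58 at chr3:144843091-144843151 and at chr17:26550411-26550451 (both rank 47) and 15.83 at chr4:144811971-144812011 and at chr8:109694931-109695151 (both rank 56). None of these 7 had a peak of SIN3A, SIN3B or RCOR1 less than 400 bp away. The other 22 sites scoring 17.34 or more all had RCOR3. That all of those lay outside chromosomes 8 and 9 or had RCOR3 restates these positions and is no separate result.

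RCOR2 and RCOR3 midpoints nearly coincided where both were present. The median absolute offset was 30 bp (20 to 40), close to the 20 bp grid on which all peak edges lie. The midpoints were equal at 19 of the 190 sites, within 20 bp at 85 and within 100 bp at 184. The remaining 6 reached at most 180 bp. RCOR3 lay at the higher coordinate at 87 sites and at the lower one at 84, a nearly even split. At REST the median offset between the 2 was 20 bp (10 to 30, n = 59). The deposited intervals themselves overlapped at 151 of the 190 sites. Offset did not follow the RCOR2 score (rho = -0.06).

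**Figure D3:**
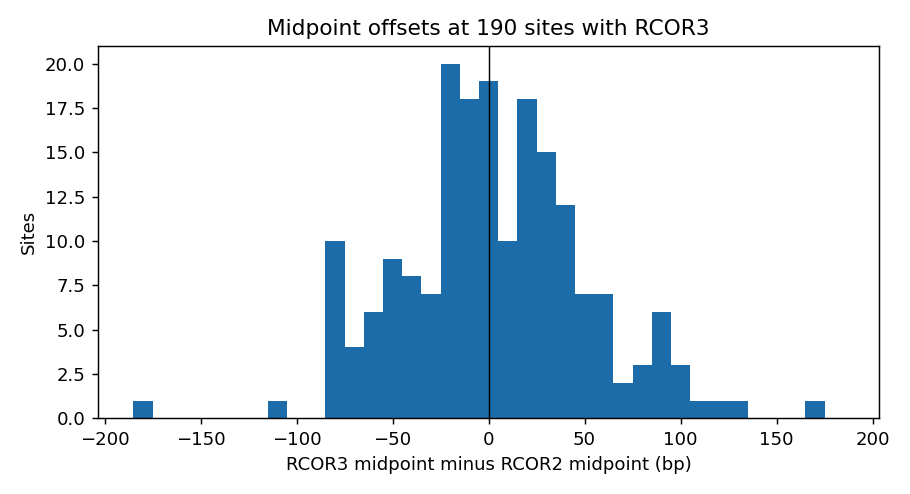
Number of sites (vertical axis) by the RCOR3 midpoint minus the RCOR2 midpoint in bp (horizontal axis, 10 bp bins) at the 190 sites shared away from REST. The counts lie on both sides of 0, and 184 of 190 sites fall within 100 bp.

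Widths were similar in the classes. Sites with and without RCOR3 both had a median width of 60 bp (60 to 60), with a range of 40 to 300 bp in each. The narrowest width, 40 bp, was held by 40.5% of sites with RCOR3 and 39.9% of sites without, and widths over 100 bp by 24.2% and 18.6%. RCOR2 score and width were unrelated across the 373 sites (rho = 0.0016). The RCOR2 and RCOR3 peaks of a shared site had little in common in width (rho = 0.09, n = 190), with a median difference of 0 bp and quartiles of -20 and 40 bp. Of the 4 widest sites, chr17:70805531-70805831 had both RCOR3 and a SIN3B peak, while chr3:96414011-96414311 had an RCOR2 score of 8.04 and no other peak.

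The SIN3 proteins were seldom found at these sites. SIN3B had a peak at 23 of 373 (6.17%, 3.95 to 9.11%), against 19.2% over all RCOR2 peaks outside the stretch on chromosome X and 95.3% (61 of 64, 86.9 to 99.0%) at REST. SIN3A had a peak at 7 sites (1.88%, 0.758 to 3.83%), against 11.4% over all RCOR2 peaks and 67.2% (43 of 64, 54.3 to 78.4%) at REST. RCOR1, the CoREST paralogue with the shortest list, was at 1 site (0.268%, 0.00679 to 1.48%), against 6.86% over all RCOR2 peaks and 45.3% (29 of 64, 32.8 to 58.3%) at REST. The peaks at REST that had RCOR2 were mostly strong ones, with a median REST score of 164, percentile 98.5 of the REST list. Sites away from REST have no REST peak by the rule, so the 2 groups cannot be matched on REST score. They were not matched on the score of any other list here either. Whether peak strength bears on this difference was not tested.

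The SIN3 proteins were about as rare in either class, within the counting error of few sites. SIN3B was at 9 of 190 sites with RCOR3 (4.74%, 2.19 to 8.80%) and at 14 of 183 without (7.65%, 4.25 to 12.5%). SIN3A was at 4 (2.11%, 0.577 to 5.30%) and 3 (1.64%, 0.339 to 4.72%). Either SIN3 protein was present at 28 sites in all (7.51%), against 20.6% over all RCOR2 peaks outside the stretch on chromosome X. Counting every combination, 177 sites had RCOR3 alone beside RCOR2 and 167 (44.8%) had no peak of any other list, so these 2 kinds made up nearly the whole set. At REST, 2 of 64 RCOR2 peaks had no other cofactor.

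Of the 28 sites with a SIN3 protein, those with both are described here. Both SIN3A and SIN3B met RCOR2 at 2 sites. At chr3:89480931-89480991 the RCOR2 score was 14.32, SIN3A was at 12.39 (rank 337 of 1314) and SIN3B at 14.09 (rank 2157 of 5318), with no RCOR3. At chr16:96250071-96250131 the RCOR2 score was 11.31 and RCOR3 19.24, while SIN3B reached 50.57 (rank 124) and SIN3A 14.57 (rank 158). The RCOR2 score there equalled the median of the RCOR2 list, whereas SIN3B stood near the top of its own. The only site with RCOR1 was chr7:4105431-4105471, where RCOR1 had a score of 12 (rank 40 of 84) and RCOR3 one of 35.13 (rank 104). Across the 23 sites with SIN3B, the SIN3B peak had a median percentile of 40.5 (12.2 to 56.5) in its list and a median offset of 40 bp from RCOR2.

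The chromosomes held the classes very unevenly. Chromosome 8 had 50 of the 373 sites (13.4%, 10.1 to 17.3%), of which 39 were without RCOR3. It held 21.3% of sites without RCOR3 (15.6 to 28.0%) but 5.79% of those with it (2.93 to 10.1%), and 5.32% of REST peaks. Only 22% of its sites (11.5 to 36.0%) had RCOR3, against 55.4% on all other chromosomes (179 of 323, 49.8 to 60.9%). Chromosome 9 went the same way, with RCOR3 at 2 of its 12 sites (2.09 to 48.4%). Chromosome 2 stood at the other end with RCOR3 at 24 of 32 sites (75%, 56.6 to 88.5%). Without chromosomes 8 and 9, set aside after their counts had been seen, the share with RCOR3 was 56.9% (177 of 311, 51.2 to 62.5%).

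**Figure D4:**
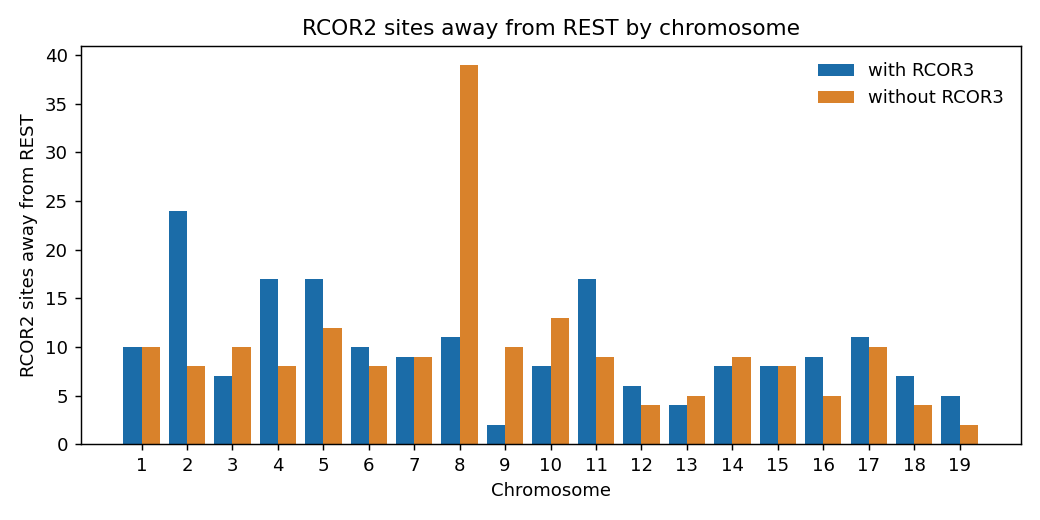
Number of RCOR2 sites away from REST (vertical axis) on each autosome (horizontal axis), with RCOR3 in blue and without in orange. Chromosome 8 has 39 sites without RCOR3 and 11 with it, whereas chromosome 2 has 8 without and 24 with. Chromosome X had none outside the left-out stretch.

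The same chromosomes held few of the RCOR3 peaks away from REST. Of these 2772 peaks, chromosome 8 held 67 (2.42%) and chromosome 9 held 16 (0.577%). Their shares of REST peaks were 5.32% and 5.91%. Of those on chromosome 8, 11 met RCOR2 (16.4%, 8.49 to 27.5%), against 6.62% on the chromosomes other than 8 and 9 (178 of 2689, 5.71 to 7.63%). On chromosome 9, 2 did (12.5%, 1.55 to 38.3%). At REST, RCOR2 peaks on these 2 chromosomes had RCOR3 at 9 of 10 (55.5 to 99.7%). On chromosome 8 the median RCOR2 score was 12.06 with RCOR3 and 10.55 without, against 12.06 and 10.93 on all other chromosomes, so the classes stood in the same order there. SIN3A, whose list also had a large share on chromosome 8 (14.8%), met RCOR2 there at 3 sites.

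Part of the excess on chromosome 8 lay in 1 region, picked out after the positions had been seen. Between chr8:73026911-74814211 stood 12 of the 50 sites, the densest 2 Mb window of any chromosome. The next densest held 6 (chr3:96170191-97808711). In the window on chromosome 8, 4 of the 12 sites had RCOR3 and 3 had a SIN3 protein. Over the 50 sites of the whole chromosome these counts were 11 and 6. The other lists were also dense in the window, with 59 SIN3B, 44 SIN3A, 14 RCOR3 and 11 REST peaks. The remaining 38 sites of the chromosome lay elsewhere along it.

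The sites were far from REST in both classes. The median distance to the nearest REST midpoint was 184690 bp (143660 to 216890), and the values ran from 910 to 4330580 bp. Sites with RCOR3 had a median of 182225 bp (137890 to 229940) and sites without had 186910 bp (135160 to 239080). Within 10 kb of a REST peak lay 9 sites with RCOR3 (4.74%, 2.19 to 8.80%) and 5 without (2.73%, 0.893 to 6.26%). Within 100 kb lay 32.6% and 30.1%. Among RCOR3 peaks without RCOR2 or REST, 36.2% (34.3 to 38.1%) lay within 100 kb. The intervals of the 2 classes overlapped at each of these distances. The nearest REST peak had a median score of 19.56, at percentile 47.4 (42.3 to 53.0) of the REST list, near the middle of that list.

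**Figure D5:**
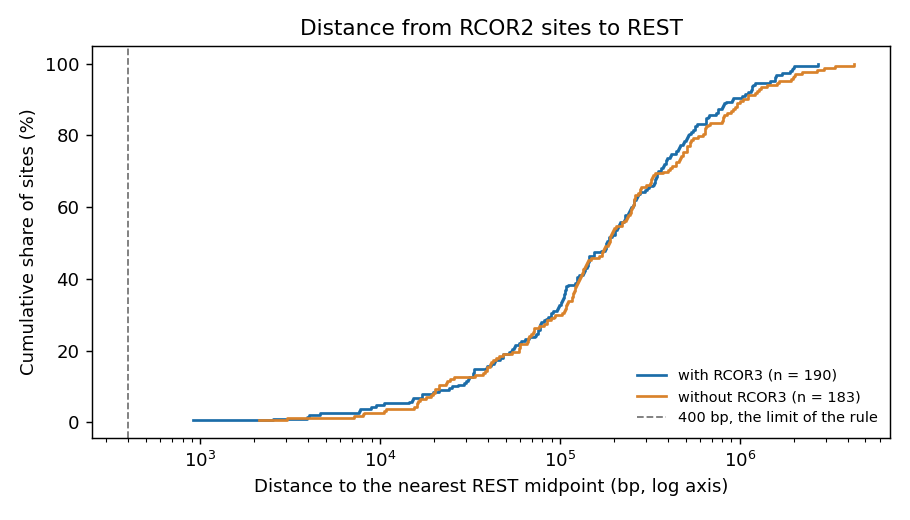
Cumulative share of sites (vertical axis, percent) by distance to the nearest REST midpoint (horizontal log axis, bp) for the 190 sites with RCOR3 and the 183 without. The curves run together through medians of 182225 and 186910 bp, and no site lies between the limit of 400 bp (dashed line) and 910 bp.

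The few sites nearest to REST had REST neighbours of very different strength. The site at 910 bp had an RCOR2 score of 11.31 with RCOR3, and its REST neighbour had a score of 66.38 (rank 339 of 3104). The site at 2530 bp (RCOR2 14.32, with RCOR3) had a REST neighbour of only 13.04 (rank 2181). In all, 7 sites lay within 5 kb, 5 of them with RCOR3. Within 10 kb, 14 sites had a REST peak, 65 a SIN3B peak and 24 a SIN3A peak. Within 100 kb the counts were 117, 204 and 109. These counts cannot be compared between REST and the SIN3 proteins, because the rule removed every site with REST less than 400 bp away. The SIN3B and SIN3A counts still include the 23 and 7 sites with a peak that close. The lists also differ in length, with SIN3B the longest. Of the 183 sites without RCOR3, 24 (13.1%) had an RCOR3 peak within 10 kb, and the median distance was 105820 bp (70870 to 169840).

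Most sites stood alone. No 2 sites were within 1 kb of each other, 6 neighbouring pairs were within 10 kb, and the median gap along a chromosome was 2230715 bp. With gaps of up to 100 kb allowed, 52 sites formed 22 groups and 321 stayed single. The largest group had 5 sites over 103 kb at chr6:37702971-37806231, with RCOR2 scores from 7.91 to 19.6, and 3 of the 5 had RCOR3. It contained the 2 closest pairs of all, 3500 and 3670 bp apart, and in each the site with the higher RCOR2 score was the one with RCOR3. The group also held the site at rank 22 named above.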

How the data were processed

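Each of the 6 libraries has a peak list by the authors, in which every peak has a chromosome, a start, an end and a score. The build mm8 comes from the names of the deposited lists. Aligner, peak caller, control and threshold: not given in the sources used here. Read depth is unknown. The authors' score was ranked within its own list, with ties sharing a rank.

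Samples were grouped by title. Midpoints were the mean of start and end, and lists were compared by nearest midpoint on the same chromosome, where less than 400 bp counted as shared. Shares have exact 95% Clopper-Pearson intervals and medians have binomial order-statistic intervals (SciPy 1.17.1, Python 3.11.15). No test was run, since each protein has 1 library. The matching was tested on simulated lists with planted peaks. Regions named in the text were the highest-scoring of each class, the 5 with the highest RCOR3 score, those with both SIN3 proteins or RCOR1, those nearest the distance limit, the widest and the closest neighbours. The sites and rules were chosen with earlier results of these data known. The reference tables at hand are on a later build and were not used.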

Additional observations from a re-analysis of the deposited data

How the results depend on the processing

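Each of 14 summary values was recomputed under 10 alternatives, and without chromosomes 8 and 9 together, an alternative chosen after seeing the data. Of 152 recomputed values, 135 stayed within the interval of the reported value, or within 1.5 times it for the number of sites. Midpoints under 200 bp or up to 1000 bp apart and a limit of 5000 bp from REST kept every value within these bounds, with 374, 372 and 366 sites. The median RCOR2 percentile of sites without RCOR3, whose interval is wide because of ties, was 31.6 at 1000 bp or without chromosome 8 and 42.3 with intervals as deposited or with the stretch of chromosome X kept. The share with RCOR3 was 40.8% with intervals as deposited, which gave 387 sites. It was 61.6% with only RCOR2 peaks at or above the median score of their list, and 56.9% without chromosomes 8 and 9. The share of RCOR3 peaks away from REST with RCOR2 was 5.24% with intervals as deposited and 5.30% with that RCOR2 limit. The number of sites was 237 with that limit and 239 with the same limit on every list. The percentile of sites without RCOR3 was 56.3 under both, by construction, since lower peaks were dropped. With the limit on every list, the median percentile of sites with RCOR3 was 74.2 for RCOR2 and 85.5 for RCOR3, SIN3B was at 2.09%, the median distance to REST was 410170 bp, and 9.03% of RCOR3 peaks away from REST had RCOR2. Merging neighbouring peaks of a list gave median RCOR2 percentiles of 56.2 and 20.7. With the stretch of chromosome X kept, RCOR1 was at 1.58% of sites. No paired analysis was possible because each protein has 1 library and no test was run. The unknown read depth and thresholds limit every statement that a peak was missing.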

Other observations

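Peaks at the very start of a chromosome were looked at after 2 named positions fell there. Of the 373 RCOR2 sites away from REST, 2 lay below 3.1 Mb, 1 with RCOR3 and 1 without. They were neighbours on chromosome 17 (chr17:3018791-3018831 and chr17:3025691-3025731), with RCOR2 scores of 12.06 and 13.57. The RCOR2 peak at chr4:3011971-3012011, 130 bp from a REST peak, also lay there. The whole lists had 6 such peaks for RCOR3, 3 each for REST, RCOR2 and SIN3B, 1 for RCOR1 and 0 for SIN3A.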
